A study of Drosophila melanogaster with 6 samples.

Results

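The digestive enzyme genes examined here are 38 listed genes of Drosophila melanogaster: 11 trypsins, 15 Jonah proteases, 2 amylases, 8 maltases of the Mal-A cluster and 2 lysosomal mannosidases. They were listed by name and enzyme family, with no measured value in the rule, and all 38 were matched by symbol among the 13946 protein-coding genes of the dm6 assembly. Open chromatin had been mapped in an ATAC-seq assay, where Tn5 transposase inserts tags into accessible DNA, in 6 samples of sorted midgut progenitors. The 3 controls carried esgts, UAS-GFP, and the 3 H1 RNAi samples carried esgts, UAS-GFP UAS H1 RNAi 1, which targets the linker histone H1. The esgts driver, temperature-sensitive and also present in the controls, marks intestinal stem cells and enteroblasts together, and each group rests on 1 genotype. Females 3 days old spent 2 days at 18 °C and then 4 days at 29 °C on poor food. Each replicate (A, B and C) pooled 70 guts and held 50000 to 100000 GFP-positive cells. The comparison asks whether chromatin at these genes opens or closes in progenitors when H1 is depleted.

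These enzymes are products of enterocytes, the absorptive cells of the midgut, which arise from enteroblasts. Trypsins and the Jonah family are secreted serine proteases that cut dietary protein. Amylases cut starch into maltose and short glucose chains, maltases release glucose from these, and lysosomal mannosidases remove mannose from glycans. The peak lists therefore describe these genes in cells that come before the type known for using them.

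The peak lists differ in length and in the width of their peaks. The controls A, B and C had 6142, 10872 and 8602 called peaks, and H1 RNAi A, B and C had 6564, 9827 and 7261. The list of control B was the longest and covered 6.92 Mb. The other samples covered 2.75 to 5.96 Mb, with the highest of these values in control C. Median peak widths were 364, 518 and 572 bp in controls A, B and C. In H1 RNAi A, B and C they were 416.5, 323 and 335 bp. Read totals were not used here. Group differences in counts and coverage at the 38 genes are also given without control B and without control A. Progenitor markers, listed to check the label, were open in most cases. Of 12 genes, among them esg, N and Sox21a, 10, 12 and 11 had a peak within 500 bp of a gene end in the controls. In the H1 RNAi samples 9, 11 and 10 did. Of all protein-coding genes, 29 to 53.4% had such a peak per sample. Regulators of enterocytes, given below, scored as high: 11 of 14 had one in all 6 samples, against 9 of 12 progenitor markers. Genes for absorption and cell junctions of enterocytes, also given below, scored lower, with 1 of 14 in all 6 samples. The enterocyte lists thus differed from each other, and these counts alone do not tell progenitors from enterocytes. Of 12 enteroendocrine markers the counts were 1, 5 and 3 against 1, 3 and 1, and 7 of the 12, the hormone genes Tk and AstA included, had none in any sample. Of 10 visceral muscle markers 1 to 3 per sample had a gene-end peak, of 8 hemocyte markers 0 to 2 and of 8 fat body markers 1 to 5. Among these markers the groups differed by 2 samples at Delta, the Notch ligand gene (3 controls and 1 H1 RNAi sample), and at NimC1, a hemocyte receptor gene (2 and 0). A gene-end peak in at least 2 more controls than H1 RNAi samples was seen at 3.81% of all protein-coding genes, and the reverse at 0.459%. Exact permutation p was 0.5 for the progenitor list, 0.7 for the enteroendocrine and hemocyte lists, 1 for the visceral muscle list and 0.9 for the fat body list. The sorts are bulk samples, so a site open in few cells and a site weakly open in many cannot be told apart.

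Most digestive enzyme genes had no called peak at their ends, in controls and H1 RNAi samples alike. The same held for all protein-coding genes in every sample but control B. A peak lay within 500 bp of either end of the gene at 6, 13 and 9 of the 38 genes in controls A, B and C. In H1 RNAi samples A, B and C it did at 9, 10 and 6. These are 15.8, 34.2 and 23.7% of the 38 in controls and 23.7, 26.3 and 15.8% in H1 RNAi samples. The shares of all protein-coding genes were 29, 53.4 and 45.8% in controls and 35.3, 46 and 30.3% in H1 RNAi samples. Counts at the 38 overlapped between groups, and control B held the highest. Mean counts were 9.33 ± 3.51 genes (controls) and 8.33 ± 2.08 genes (H1 RNAi; SD, n = 3 in both; exact two-sided permutation p = 1, where 0.1 is the smallest p that 3 against 3 allows). Without control B the difference turned from −1 to 0.833 genes, and without control A it was −2.67 genes.

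Within the gene body and 2 kb on either side, called the locus here, 8, 17 and 11 genes held a peak in the controls. In the H1 RNAi samples 11, 12 and 9 did (exact permutation p = 0.9). The difference of −1.33 genes became 1.17 without control B and −3.33 without control A. The loci, 132 kb in all after merging overlaps, held 7, 15 and 10 peaks in the controls against 10, 11 and 8. These counts also overlapped, with means of 10.7 ± 4.04 and 9.67 ± 1.53 peaks (SD, n = 3 each, exact permutation p = 0.9). Their difference turned from −1 to 1.17 peaks without control B and was −2.83 peaks without control A. Peaks covered 1.69, 5.83 and 3.89% of the loci in the controls, and 3.00, 2.95 and 2.02% in the H1 RNAi samples (exact permutation p = 0.5). The loci of all protein-coding genes were covered to 2.35, 5.98 and 5.15% in controls and 2.88, 3.39 and 2.49% in H1 RNAi samples, so the 38 stood below them in 5 samples and above them in H1 RNAi A. The group difference in the covered share of the 38 loci, −1.14 percentage points, was −0.129 without control B and −2.20 without control A (exact permutation p = 1 and 0.1). Over the 13 group comparisons made, with the 8 further gene lists included, each exact permutation p was 1 after Benjamini-Hochberg adjustment.

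No digestive enzyme gene separated the groups. None had a gene-end peak in 3 of 3 controls and in 0 of 3 H1 RNAi samples, a pattern seen at 0.222% of all protein-coding genes, and none had the reverse, seen at 0.0359%. The same held for the locus, against 0.129 and 0.0215% of all genes. With so rare a pattern, a count of 0 among 38 genes lies near the background. The looser rule of 2 or more of 3 against 0 of 3 also found 0 of the 38, where 2.5% of all genes met it towards controls and 0.308% towards H1 RNAi at gene ends. At the locus those shares were 2.54 and 0.244%, and again 0 of the 38 met the rule. Under this looser rule too, a count of 0 among 38 genes lies near the background.

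**Figure D1:**
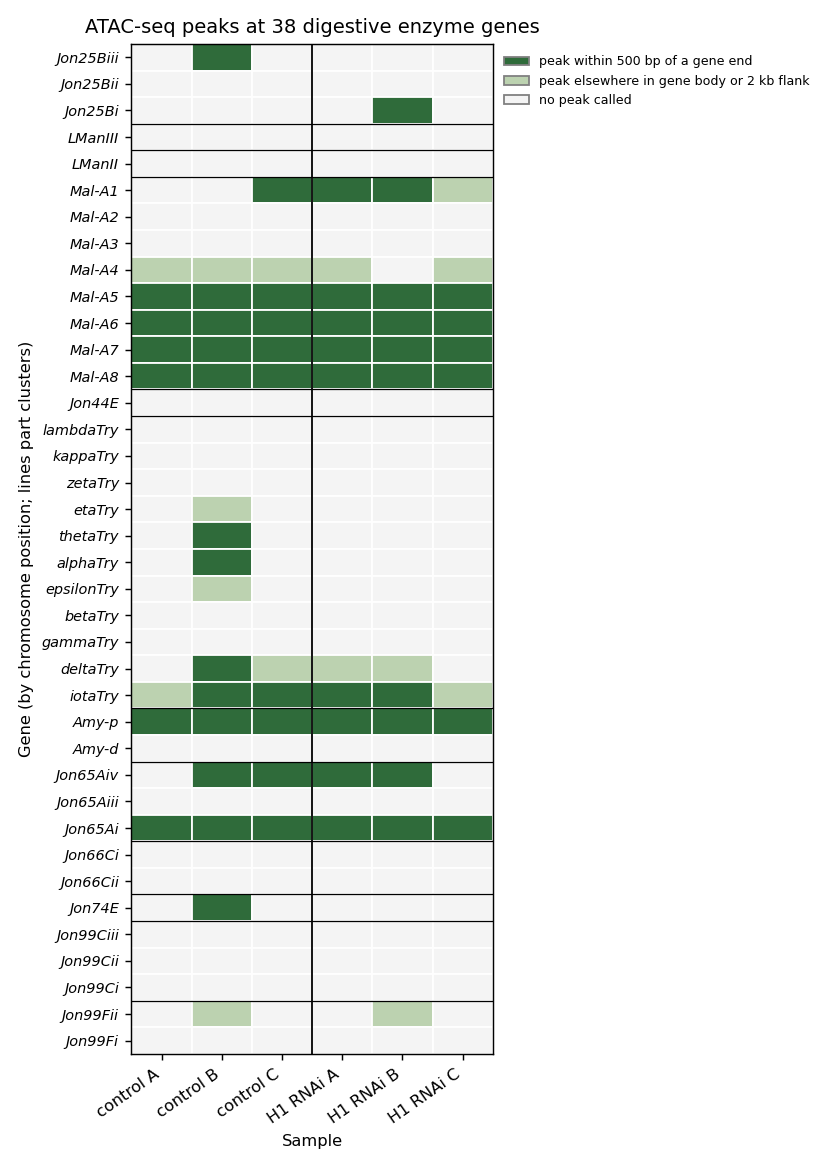
Peaks at each of the 38 genes (rows, by chromosome position, with lines between clusters) in each of the 6 samples (columns, controls left of the vertical line). Dark green marks a peak within 500 bp of a gene end, light green a peak elsewhere in the gene body or its 2 kb flanks, grey no called peak. Mal-A5 to Mal-A8, Amy-p and Jon65Ai are dark in all 6 columns, and most rows are grey.

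Across samples the genes fell mostly at the extremes. A gene-end peak was called in 0 of 6 samples at 23 of the 38 genes (60.5%), in 1 sample at 6 genes, and in all 6 at 6 genes (15.8%). Of all protein-coding genes 43.2% had a gene-end peak in 0 samples and 22.3% in all 6. For the locus, 19 of the 38 (50%) had no peak in any sample and 7 (18.4%) had one in all 6, against 28.8 and 35.9% of all genes. The 38 genes had a median length of 958 bp, against 2161 bp for all genes.

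Measured per base at gene ends, proteases and carbohydrases differed in coverage. Of all bases within 500 bp of a protein-coding gene end, 5.21, 14.2 and 11.9% lay under peaks in controls A, B and C, and 7.24, 8.46 and 5.39% in H1 RNAi samples A, B and C. At the 26 protease genes the shares were 0.0904, 6.94 and 2.15% in controls and 2.47, 2.24 and 0.223% in H1 RNAi samples, below the all-gene share in each of the 6 samples. At the 12 carbohydrase genes (amylases, maltases and mannosidases) they were 5.58, 10.4 and 9.70% in controls and 6.25, 5.64 and 6.25% in H1 RNAi samples. These stood above the all-gene share in control A and H1 RNAi C and below it in the other 4 samples. The carbohydrases were a mixed class. Amylase gene ends, through a peak at Amy-p alone, were covered to 9.07 to 15.3%, above all genes in each sample. Maltase gene ends were covered to 5.37 to 12.1%, and mannosidase gene ends to 0% in each sample. Over whole loci the carbohydrases stood above all genes in 5 of 6 samples, with 3.31, 5.30 and 5.81% in controls A, B and C and 3.79, 3.50 and 3.39% in H1 RNAi A, B and C, control B being the exception. The protease loci, at 0.504, 6.21 and 2.49% in controls and 2.43, 2.55 and 1.03% in H1 RNAi samples, stood below all genes in 5 samples and above them in control B.

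Proteases lay farther from the nearest peak than carbohydrases in 5 of 6 samples. The median distance over the proteases was 13.4, 2.48 and 8.26 kb in controls A, B and C and 10.6, 8.16 and 13.2 kb in H1 RNAi samples A, B and C. Over all genes the medians were 3.43, 0.031 and 0.534 kb in controls and 2.00, 0.521 and 2.83 kb in H1 RNAi samples. The carbohydrase medians were 2.82, 2.75 and 0.705 kb in controls and 0.766, 1.59 and 0.745 kb in H1 RNAi samples, so the order was turned in control B. Of the 38 genes, 19 to 24 lay more than 5 kb from any peak in each sample other than control B, where 10 did. These are 50 to 63.2% of the 38 against 25.2 to 43.0% of all genes, and in control B 26.3% against 20.3%. The share of the 38 with a gene-end peak, minus that of all genes, was −13.2, −19.2 and −22.1 percentage points in controls A, B and C and −11.6, −19.7 and −14.5 in H1 RNAi samples A, B and C. The groups overlapped in this gap (exact permutation p = 0.5).

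**Figure D2:**
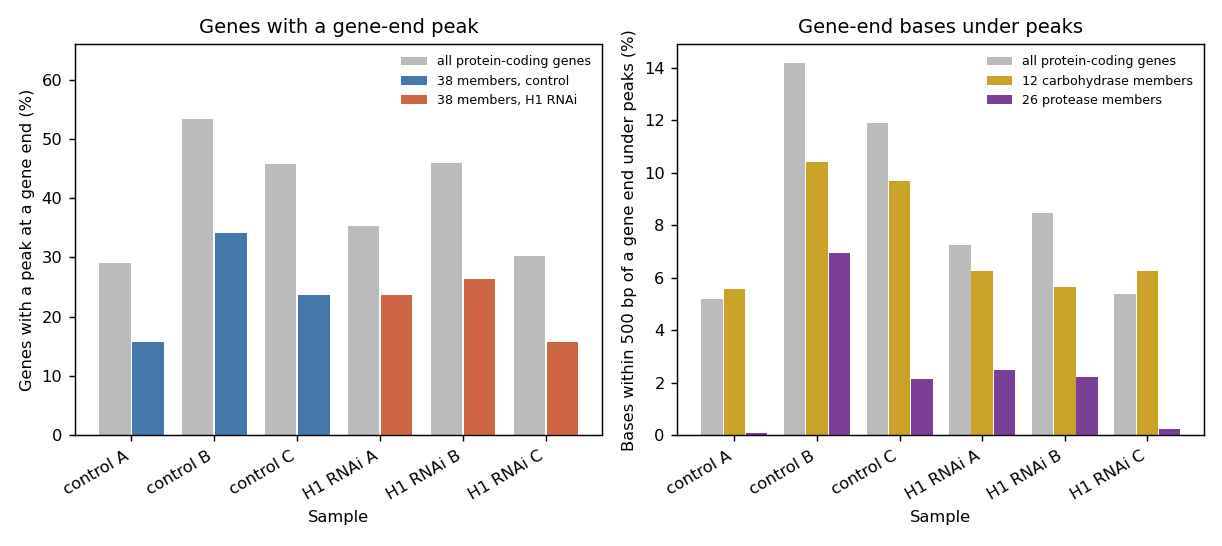
Left, the percentage of genes with a peak within 500 bp of a gene end in each sample, for all 13946 protein-coding genes (grey) and the 38 digestive enzyme genes (blue controls, orange H1 RNAi). Right, the percentage of bases within 500 bp of a gene end that lie under peaks, for all genes (grey), the 12 carbohydrases (gold) and the 26 proteases (purple). The coloured bars at left stay below the grey ones in all 6 samples, and at right the proteases have the lowest bar in each sample.

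Of the 6 regions called in every sample at the 38 gene loci, 3 lay at maltase genes. Maltases are alpha-glucosidases, and their 8 genes lie within 24.3 kb on chromosome 2R (8449664 to 8473961). Gene-end peaks were called at 4, 4 and 5 of the 8 in controls A, B and C and at 5, 5 and 4 in H1 RNAi samples A, B and C. Mal-A5 (CG30359), Mal-A6 (CG30360), Mal-A7 (CG11669) and Mal-A8 (CG8690) had one in all 6 samples. The remaining maltases did not: Mal-A2 (CG8694) and Mal-A3 (CG8695) had no peak in their loci in any sample.

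Along the cluster, merging the 6 lists gave 5 regions, 4 of them in its right part. The first of these 4 lay between genes, with its median summit 306 bp from Mal-A5 (8462293 to 8462823), and was called in 3 controls and 2 H1 RNAi samples, H1 RNAi B being the exception. It was also the peak that fell in the flank of Mal-A4 (CG8693), which had a locus peak in the same 5 samples and no gene-end peak in any. The next covered the adjoining ends of Mal-A5 and Mal-A6 (8464750 to 8465255), and the last the gap between Mal-A7 and Mal-A8 (8471620 to 8472090). Both were called in all 6 samples.

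The highest-ranked maltase region lay inside Mal-A7 (8468965 to 8469865), with its median summit 725 bp from the nearer gene end. Peaks were ranked within each list by q-value, a higher percentile meaning a lower q, which is a description that shows no change between lists. The Mal-A7 peak ranked at percentile 74.8, 82.7 and 79.9 in controls A, B and C. It ranked at 61.3, 77.4 and 60.2 in H1 RNAi A, B and C, respectively. The summits of the 6 lists fell within 39 bp of each other. The neighbouring regions ranked lower, between percentile 36.7 and 61.8 for Mal-A5 with Mal-A6 and between 41.6 and 58.9 for Mal-A7 with Mal-A8. None of these 3 regions lay at an end of any other protein-coding gene.

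The left part of the cluster held no peak over 11.6 kb in any of the 6 lists (8450741 to 8462292), a span that contains Mal-A2, Mal-A3 and Mal-A4. Left of it, Mal-A1 (CG8696, 8449664 to 8451904) was the 1 gene of the 38 whose groups differed by 2 samples, with a locus peak in 1 control and 3 H1 RNAi samples. Of all protein-coding genes, 0.466% had a locus peak in at least 2 more H1 RNAi samples than controls, and 3.82% the reverse. The region (8450121 to 8450740) has its median summit inside Mal-A1 and also reaches an end of Cyp4e1, a cytochrome P450 gene. Its peaks were low in their lists, at percentile 18.6 in control C and at 2.36, 21.3 and 2.27 in H1 RNAi A, B and C. Each of the 3 stricter settings (a −log10 q of 10 or more, a fold of 4 or more, lists cut to equal length) removed the gene-end peak of Mal-A1 from both groups.

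**Figure D3:**
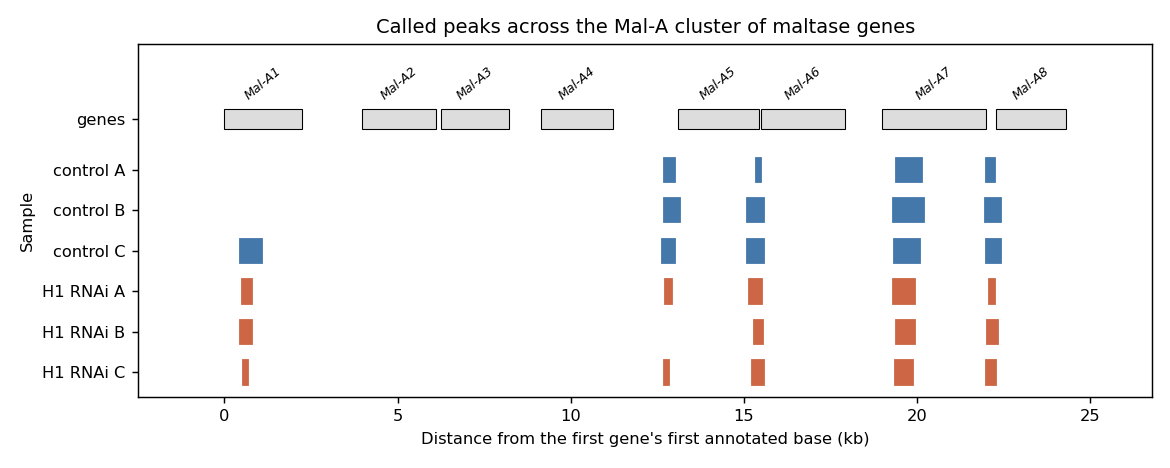
Called peaks (bars, blue controls, orange H1 RNAi, 1 row per sample) across the 8 maltase genes (grey boxes), by distance in kb from the first annotated base of Mal-A1. Peaks at Mal-A5 to Mal-A8 line up across the 6 rows, the span over Mal-A2 to Mal-A4 is empty, and the leftmost region is present in control C and the 3 H1 RNAi samples.

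Of the amylase genes, Amy-p had a peak in all 6 samples and Amy-d in none. Amy-p (CG18730, chromosome 2R, 17118636 to 17120303) had its region at the end that faces Amy-d (17120107 to 17120733), with a median summit 57 bp outside the gene. By percentile within the list, it stood at 84.0, 87.8 and 68.7 in controls A, B and C and at 69.9, 87.2 and 72.3 in H1 RNAi samples A, B and C. The authors' fold enrichment there was 6.65, 6.04 and 5.57 in the controls and 6.55, 10.9 and 5.41 in the H1 RNAi samples. Each of the 3 stricter settings kept this peak in all 6 lists.

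Amy-d (CG17876, 17124764 to 17126369) lay 4031 to 4164 bp from the nearest peak, which is the one at Amy-p. The amylase genes are known as closely similar duplicates. The sources used here do not say how reads matching both copies were placed, so the assignment of the peak to Amy-p rather than Amy-d is uncertain within the duplicated part.

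The mannosidase genes lay far from any peak. LManIII (CG9463, chromosome 2L, 8765273 to 8768710) was 24091 to 24565 bp from the nearest peak in the 6 lists. LManII (CG6206, chromosome 2L, 10457658 to 10462472) was 14604 to 37907 bp away. Neither had a peak in its locus in any sample.

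The trypsin genes, 11 within 20.7 kb on chromosome 2R (11336840 to 11357537), had their peaks at the right edge of the cluster in every sample except control B, which also had some within it. Gene-end peaks were called at 0, 4 and 1 of the 11 in controls A, B and C, and at 1, 1 and 0 in H1 RNAi samples A, B and C. With the peaks of that edge, 0.714, 12.1 and 5.66% of the trypsin loci were covered in controls and 5.43, 4.62 and 2.19% in H1 RNAi samples, more than the loci of all genes in control B, control C, H1 RNAi A and H1 RNAi B. Without control B the 5 remaining lists had no peak over 49.0 kb (11307905 to 11356951), a span that contains 10 of the 11 genes, from lambdaTry to deltaTry. In all 6 lists the longest such span was 34.8 kb and contained 5 of them, lambdaTry, kappaTry, zetaTry, etaTry and thetaTry.

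Control B alone had peaks between genes next to thetaTry (11342842 to 11343097) and alphaTry (11343773 to 11344172), at percentile 4.95 and 28.2 of its list. A further peak of control B alone lay between deltaTry and iotaTry (11356183 to 11356353, percentile 5.86), with its summit inside the gene CG13202. Trypsins of this cluster include closely similar copies, so values at single genes from alphaTry to deltaTry are uncertain in the same way as those of the amylases.

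At the right edge, iotaTry (CG7754, 11356720 to 11357537) had a gene-end peak in controls B and C and in H1 RNAi samples A and B. The region (11356665 to 11357795) also reached the ends of the neighbours CG13202 and CG12384. Its peaks stood at percentile 39.3 and 19.9 in the controls and at 23.5 and 36.2 in the H1 RNAi samples. A region further right (11358533 to 11359423), called in all 6 samples, lay at the ends of CG12384 and ix, a Mediator subunit gene. It entered the iotaTry locus from outside, with its median summit 1550 bp from the gene. The locus peaks of deltaTry (CG12351), in 2 controls and 2 H1 RNAi samples, belong to the region at iotaTry and, in control B, to the peak between deltaTry and iotaTry as well.

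**Figure D4:**
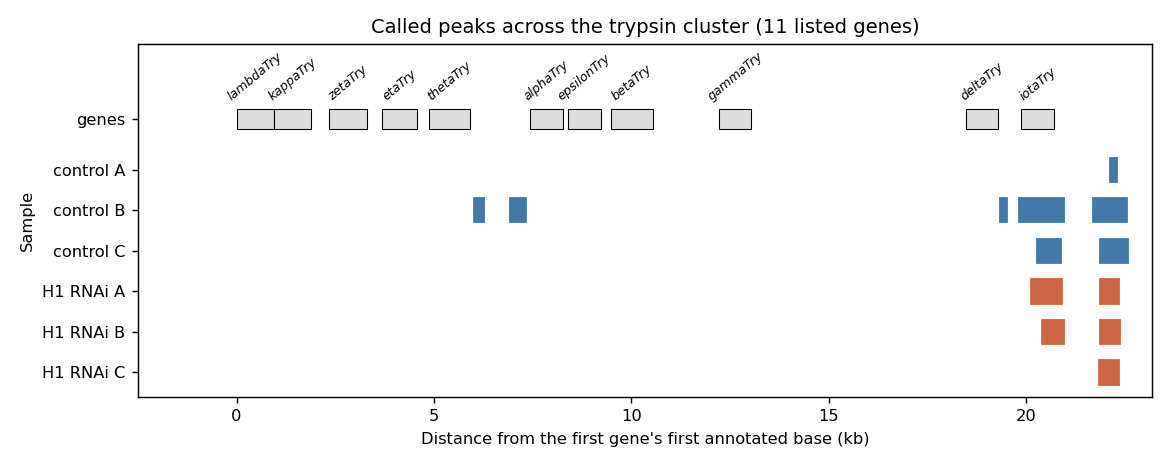
Called peaks (bars, blue controls, orange H1 RNAi, 1 row per sample) across the 11 listed trypsin genes (grey boxes), by distance in kb from the first annotated base of lambdaTry. Rows other than control B are empty from lambdaTry to deltaTry, and the peaks at the right edge lie at iotaTry and beyond it.

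The Jonah genes, chymotrypsin-like proteases spread over chromosomes 2L, 2R, 3L and 3R, had gene-end peaks at 1, 4 and 2 of 15 genes in controls A, B and C and at 2, 3 and 1 in H1 RNAi samples A, B and C. The gene-end peak common to all 6 lists was that of Jon65Ai (CG10475, chromosome 3L, 6053493 to 6054443). Its region (6054842 to 6055385) lay between Jon65Ai and the neighbouring gene tant and reached the ends of both. The percentile of its peak ran from 19.1 to 53.7 in the controls and from 23.9 to 38.6 in the H1 RNAi samples. The nearest base of the peak was 399 to 462 bp from Jon65Ai, so the window of 250 bp left 0 of 6 samples. A −log10 q of 10 or more kept the peak in 2 controls and 0 H1 RNAi samples, and lists of equal length kept it in 3 and 2.

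Jon65Aiv (CG6467, chromosome 3L, 6039155 to 6040135) had a gene-end peak in controls B and C and in H1 RNAi samples A and B. This region (6038353 to 6038919) lay between Jon65Aiv and CG6462 and reached the ends of both, with percentiles of 43.2 and 31.4 in controls and 33.2 and 46.7 in H1 RNAi samples. Jon65Aiii, between these genes, had no peak in its locus in any sample.

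The other Jonah genes had scattered peaks or none. Control B alone had a peak at Jon25Biii and at Jon74E, and H1 RNAi B alone had one at Jon25Bi. The peak at Jon25Biii had its summit inside the gene jet, and the one at Jon25Bi also reached an end of Marcal1. A region at an end of PH4alphaEFB, its median summit 882 bp from Jon99Fii, was called in control B and H1 RNAi B. The Jon66C pair and the Jon99C trio, along with Jon44E, Jon25Bii and Jon99Fi, had no locus peak in any of the 6 lists. In the Jon66C pair the nearest peak was 11382 to 12923 bp away.

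Many of the peaks at these genes also lay at the end of a neighbour outside the 38. Merging the 6 lists gave 17 regions in the loci of the 38 genes, of which 6 were called in all 6 samples and 6 in a single sample, 5 of these in control B. An end of a gene outside the 38 lay within 500 bp of 9 of the 17 regions. A count of peaks that reach no end of a gene outside the 38 was added after seeing the data. Among these, gene-end peaks remained at 5, 8 and 5 of the 38 genes in controls A, B and C. In each of the 3 H1 RNAi samples they remained at 5 genes. The genes common to all 6 are Mal-A5 to Mal-A8 and Amy-p, and the further 3 in control B are thetaTry, alphaTry and Jon74E. Mal-A6 was counted through a region shared with Mal-A5, and Mal-A8 through a region shared with Mal-A7.

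**Figure D5:**
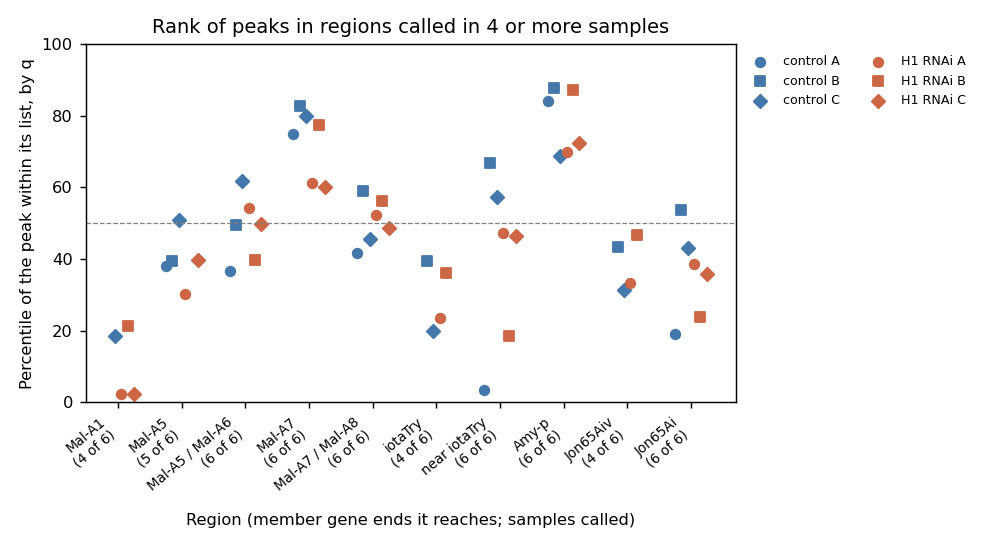
Percentile of each peak within its list (y axis, higher for a lower q), for regions in the loci of the 38 genes that were called in 4 or more samples (x axis, with the member genes whose ends they reach and the number of samples). Blue marks controls and orange H1 RNAi, with 1 point per sample, and the dashed line marks the middle of a list. The regions at Amy-p and inside Mal-A7 stand above the line in all 6 samples, and the points at Mal-A1 lie between 2.27 and 21.3.

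Other digestive enzymes also had few gene-end peaks. In a further list of 26 genes, 2, 6 and 6 had a gene-end peak in controls A, B and C and 4, 5 and 3 in H1 RNAi samples A, B and C (exact permutation p = 0.8). Of all protein-coding genes, 29 to 53.4% had one per sample. Of the 26, 17 had none in any sample, where 43.2% of all genes had none. The gene yip7, of the Jonah type and near Jon65Aiv, had one in all 6. LysP, a lysozyme gene, had one in 2 controls and 3 H1 RNAi samples, and cathD, which encodes the lysosomal protease cathepsin D, in 3 and 2. The lipase gene Lip4 had one in 2 controls and 0 H1 RNAi samples, and 2.5% of all genes had one in 2 or more controls against 0.

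Genes for absorption and cell junctions of enterocytes varied with the library. Of 14 such genes, 2, 10 and 9 had a gene-end peak in controls A, B and C and 3, 6 and 4 in H1 RNAi samples A, B and C. Of all protein-coding genes, 29, 53.4 and 45.8% had one in the controls and 35.3, 46 and 30.3% in the H1 RNAi samples. The means of the 14 were 7 ± 4.36 and 4.33 ± 1.53 genes (SD, n = 3 each, exact permutation p = 0.4). This gap of −2.67 genes was −5.17 without control A, −1.17 without control B and −1.67 without control C (exact permutation p = 0.1, 0.8 and 0.8). The sugar transporter gene Tret1-1 had one in all 6 samples. Npc1b, a sterol uptake gene, and Ssk, a smooth septate junction gene, each had one in 2 controls and 0 H1 RNAi samples, a pattern (2 or more against 0) met by 2.5% of all genes.

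Most regulators of these enzymes and of enterocyte identity had a gene-end peak in every sample. Of 14 regulator genes, 11 had a gene-end peak in each control, and 11, 11 and 12 had one in H1 RNAi A, B and C (exact permutation p = 1). The same 11 had one in all 6 samples, where 22.3% of all protein-coding genes did. The 11 include the transcription factor genes nub and GATAe and the regional factors lab and Ptx1. Also among them are Mondo, which encodes a sugar-sensing factor, daw, which encodes an activin-like ligand, and Hnf4, a nuclear receptor gene. The genes sug and srp had no gene-end peak in any sample.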

How the data were processed

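ATAC-seq peak lists of 3 control and 3 H1 RNAi samples were analysed, grouped by their titles. MACS2, Picard, Bowtie2 and Trim Galore are named, with build dm6, per the submitters' processing notes. The sources used here give neither their settings nor whether reads were shifted for the cut of Tn5. Each deposited list holds peaks called per sample, each with a score, a ratio (fold enrichment) and −log10 p-values and q-values from the authors' peak caller. The lowest −log10 q was 2.00 to 2.05. Heights were used only to rank or filter peaks within a list.

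Peaks (1 bp overlap or more) were counted within 500 bp of gene ends and in the gene plus 2 kb. Genes came from the NCBI table of the dm6 assembly, which gives no strand, exons or sequence, so start and end of a gene were treated alike, exons and introns were not separated, and no sequence is shown. All 38 members were matched, and in the further lists 3 genes were matched through newer symbols and LysC, 1 pseudogene, was left out. Genes up to 20 kb apart formed a cluster. Groups were compared by exact two-sided permutation over samples (Python 3.11.15), and the overlap code was tested on simulated peaks. Per the labels, guts were collected separately for each replicate. Members with a locus peak in at least 3 of the 6 samples, or whose groups differed by 2 or more samples, were given per sample. Members and lists were chosen with earlier results of these data known. The alternatives are in the closing section. Read depth is unknown, and the number of peaks per list was the guide to precision used here.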

Additional observations from a re-analysis of the deposited data

How the results depend on the processing

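The sign of 9 of the 13 group differences turned in at least 1 setting. It turned in none for the covered share of loci, the gap to all genes and the lists of other digestive enzymes and enteroendocrine genes. A difference of 0 was not counted as a turn. The enteroendocrine difference was 0 with a minimum −log10 q of 10, a minimum fold of 4 or lists of equal length. That of other digestive enzymes was 0 without control B and without control C. With a minimum fold of 4, the difference (H1 RNAi minus control) turned to 1 gene with a gene-end peak, 0.667 genes with a locus peak and 0.667 peaks in loci. It also turned to 0.333 genes in the absorption and junction list and 1.33 in the progenitor list. With lists cut to 6142 peaks it was 0.333 for each of the first 3 measures and for the hemocyte list. The visceral muscle list turned to −0.667 with a minimum −log10 q of 10, and the regulator list to −0.667 with summits in place of whole peaks. Leaving out each sample in turn gave −2.67 to 0.833 genes with a gene-end peak, −3.33 to 1.17 with a locus peak, −2.83 to 1.17 peaks in loci, −0.167 to 0.833 visceral muscle genes and −1.83 to 0.167 fat body genes. The covered share ran from −2.20 to −0.129 percentage points, and the gap to all genes from 0.950 (without control C) to 5.37 (without control A). The first 3 turned without control B, and the first also without H1 RNAi C (0.167). The cause was not tested. No setting brought a p to the threshold of 0.05, which this design cannot reach. The labels do not say what a replicate letter shares, and the correlations left pairing undecided. Deviations of same-letter samples over all genes correlated at 0.0645, 0.308 and −0.153 for A, B and C. The value for B was the highest of any control with any H1 RNAi sample. Control A, however, correlated best with H1 RNAi C (0.304), and control C with H1 RNAi B (0.122). With the letter as a replicate block, the difference of −1 gene with a gene-end peak had an exact p of 1, and no p fell below 0.25, the smallest that 3 pairs allow. No group had more than 3 samples, so single samples were not tested as outliers.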
